A study of Mus musculus with 12 samples.

Results

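Pyroptosis and necroptosis are forms of regulated cell death that end in rupture of the plasma membrane. The genes described here are 9 of the 29428 genes in the expression table, chosen by name: Casp1, Casp4, Casp12 and Gsdmd of the pyroptosis pathway, and Casp8, Zbp1, Ripk1, Ripk3 and Mlkl of the necroptosis pathway. All 9 had a row, and all 9 reached 0.5 TPM in at least 3 libraries, as did 16127 genes in total.

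They were measured by RNA-seq in 2 striatal cell lines of the mouse, STHdhQ7 (STHdhQ7/Q7) and STHdhQ111 (STHdhQ111/Q111). Both huntingtin alleles carry 7 glutamine repeats in the former and 111 in the latter. The lines serve as the normal and the Huntington's disease (HD) genotype. Groups of 3 libraries each were nontreated STHdhQ7 cells (Q7-C), STHdhQ7 cells given 100 ng/mL murine IFNγ with 5 μg/mL LPS for 24 h (Q7-T), nontreated STHdhQ111 cells (Q111-C) and STHdhQ111 cells given the same treatment (Q111-T). All cells were immortalized and were grown at 33 °C, and each genotype is represented by 1 line, so that the repeat length and other differences between the lines cannot be told apart. IFNγ and LPS were given only together, and their separate effects cannot be told apart.

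In pyroptosis, inflammasome sensors activate caspase-1, while the mouse Casp4 product (also called caspase-11) binds LPS in the cytosol. Either protease cleaves gasdermin D, whose N-terminal part forms pores in the membrane. In necroptosis, death receptors, Toll-like receptors or the nucleic acid sensor ZBP1 bring the kinases RIPK1 and RIPK3 together, and RIPK3 phosphorylates the pseudokinase MLKL, which then breaks the membrane. Caspase-8 cleaves RIPK1 and RIPK3 and thereby holds necroptosis back. Several genes of these pathways are known targets of interferon. Transcript levels say nothing of cleavage or phosphorylation, by which these proteins act.

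Promoter windows from 250 bases before to 50 bases after a start site annotated in RefSeq (GRCm38.p6) were found for 7 of the 9 genes. The RefSeq start can differ from the gene start in the deposited annotation, whose coordinates are given with each gene below. It lies 21 bases downstream of that gene start for the Casp4 window shown, 46 for Casp12 and 8 for Ripk3, while for Mlkl the offset is -28 bases, that is, upstream. Windows are shown for Casp4 and Casp12, which responded to treatment in both lines, and for Ripk3 and Mlkl, which differed most between the lines. Casp1 also responded in both lines, but its window, which held none of the motifs below, is not shown. Capitals mark matches to an NF-κB consensus (Casp4), to TTCNNNGAA, the gamma-activated site (GAS) of the IFNγ response (Casp12), and to GAAANNGAA, the core of the interferon-stimulated response element (ISRE; Ripk3). All were searched on both strands.
Casp4, chr9:5308599-5308898, plus strand: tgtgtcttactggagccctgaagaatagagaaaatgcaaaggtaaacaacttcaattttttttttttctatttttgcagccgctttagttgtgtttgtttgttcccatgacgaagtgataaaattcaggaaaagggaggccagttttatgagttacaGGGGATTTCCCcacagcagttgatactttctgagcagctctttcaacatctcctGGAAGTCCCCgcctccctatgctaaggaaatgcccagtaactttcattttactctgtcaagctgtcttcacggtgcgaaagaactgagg
Casp12, chr9:5345226-5345525, plus strand: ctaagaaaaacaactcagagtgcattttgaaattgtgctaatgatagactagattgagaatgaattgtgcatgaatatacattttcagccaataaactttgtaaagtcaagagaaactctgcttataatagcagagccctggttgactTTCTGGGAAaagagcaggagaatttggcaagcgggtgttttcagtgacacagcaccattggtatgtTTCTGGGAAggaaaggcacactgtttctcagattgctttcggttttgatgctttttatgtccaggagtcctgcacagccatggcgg
Ripk3, chr14:55788808-55789107, minus strand: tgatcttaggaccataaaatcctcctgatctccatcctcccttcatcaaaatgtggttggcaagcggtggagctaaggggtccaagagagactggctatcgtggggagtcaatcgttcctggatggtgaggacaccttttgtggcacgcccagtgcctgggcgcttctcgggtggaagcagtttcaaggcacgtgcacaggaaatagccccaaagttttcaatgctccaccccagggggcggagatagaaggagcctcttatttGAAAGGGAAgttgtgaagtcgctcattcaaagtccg
Mlkl, chr8:111338156-111338455, minus strand: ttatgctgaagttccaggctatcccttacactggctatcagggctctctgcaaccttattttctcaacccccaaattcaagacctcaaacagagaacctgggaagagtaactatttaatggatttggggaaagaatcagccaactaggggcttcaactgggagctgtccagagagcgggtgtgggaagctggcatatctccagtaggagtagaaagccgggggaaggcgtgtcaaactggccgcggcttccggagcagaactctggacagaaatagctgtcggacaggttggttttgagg

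The Casp4 window held NF-κB matches that begin 93, 92 and 39 bases before the RefSeq start, the first of which overlaps the next. Casp12 held the same GAS sequence TTCTGGGAA at 102 and at 36 bases before its RefSeq start. The ISRE core GAAAGGGAA of Ripk3 begins 14 bases after its RefSeq start, and the Mlkl window held none of the 3 motifs. No match was found in the windows of Casp1 and Casp8, the latter around a RefSeq start 7128 bases inside the gene as deposited. Ripk1 has 2 windows, and its downstream window (chr13:34002624-34002923, plus strand, with its start 511 bases inside the gene) held the GAS sequence TTCCCGGAA at 108 and 11 bases before that start, with an ISRE core overlapping the latter. Among 32851 mouse promoter windows of the same length, 8.3% held a GAS match, 8.56% an ISRE core and 8.46% an NF-κB match. The absence of a match says only that these letters are not in the window.

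Each library held between 57505990 and 96417834 estimated counts, and 1 read pair is taken here to stand for about 4 of these counts. Of the libraries, Q7-C replicate 1 and Q7-T replicate 2 stood apart: the 20 most abundant genes took 13.9% and 14.9% of their counts, against 7.69% to 11.4% in the other 10. Leaving both out changed none of the counts of genes that passed in the 4 pairwise comparisons below, and single values without them are given beside the results. Of 8 markers of striatal neurons, 4 were in the table, and their summed level was 0.204 to 0.748 TPM in Q7-C, 0.096 to 0.532 TPM in Q7-T, 5.01 to 6.65 TPM in Q111-C and 2.21 to 2.56 TPM in Q111-T. Of these, Gad1 was at 0 in Q7-C, Q7-T and Q111-C, Gad2 was at 0 in all groups but Q7-T, and most of the sum in Q111-C was Penk. Of 10 macrophage and microglia markers, 7 were in the table, and Ptprc, which marks all leukocytes, was at 0 in every Q7-T, Q111-C and Q111-T library. The 6 mesenchymal markers summed to between 1502 and 4838 TPM. In such bulk samples, fewer cells of a type and less RNA per cell cannot be told apart.

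The first question was how each gene responded to IFNγ/LPS in each line. In Q7-T vs. Q7-C, 6 of the 9 genes rose past an adjusted p of 0.05 and a 2-fold change (Casp1, Casp4, Casp12, Gsdmd, Zbp1 and Mlkl) and none fell, where 4.04% of all genes tested passed in either direction and 2.93% rose. In Q111-T vs. Q111-C, the same 6 genes rose and none fell, where 11.2% of all genes passed and 8.28% rose. In neither line was a gene of the 9 lower at an unadjusted p under 0.05 in edgeR, nor did one fall in DESeq2 or limma. The median log2 fold change of the 9 genes was 3.53 in STHdhQ7 and 2.19 in STHdhQ111 cells, and that of all genes tested was 0.0033 and -0.005. In TPM, the treated and nontreated libraries did not overlap for 6 genes in STHdhQ7 cells, as for 14.4% of all genes, and for 7 genes in STHdhQ111 cells, as for 49.6% of all genes. Casp8, Ripk1 and Ripk3 were the genes that did not pass in either line. Without the 2 libraries that stood apart, the log2 fold changes in STHdhQ7 cells were 6.35 for Casp1, 6.15 for Casp4, 1.95 for Gsdmd, 5.89 for Zbp1, 0.94 for Ripk3 and 3.27 for Mlkl.

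**Figure D1:**
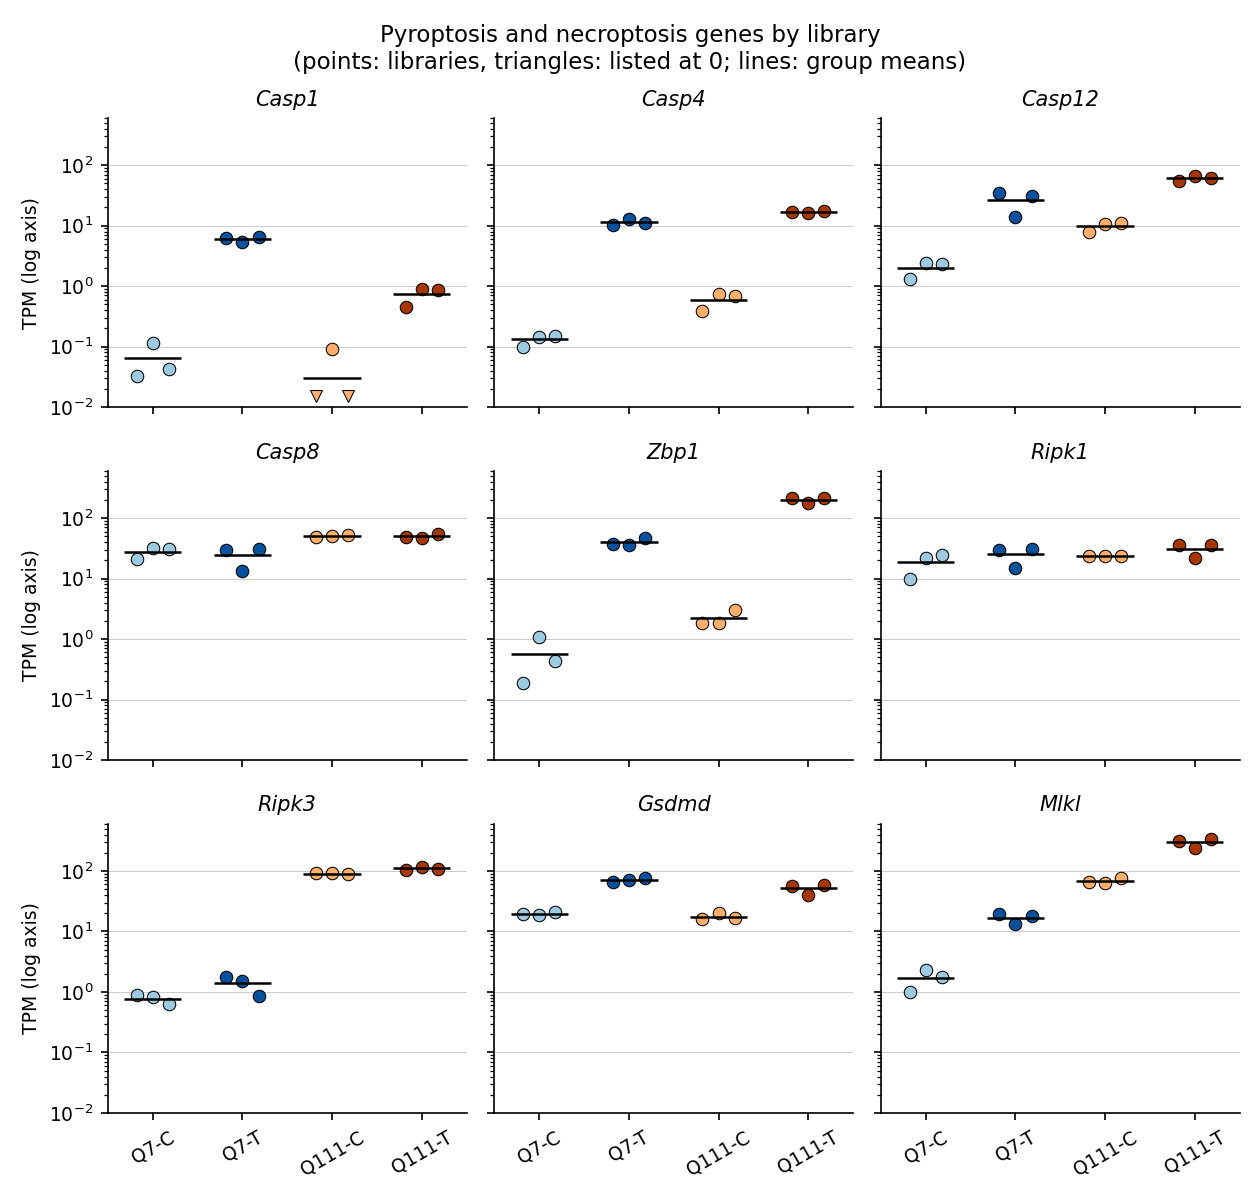
TPM of each gene on a log axis in all 12 libraries, grouped as Q7-C, Q7-T, Q111-C and Q111-T. Each point is a library, lines are group means, and triangles mark libraries in which the gene is listed at 0. Zbp1 and Mlkl step up with treatment in both lines, Ripk3 separates the lines, and Casp8 and Ripk1 stay between 9.71 and 53.6 TPM throughout.

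Casp1, Casp4 and Casp12 encode inflammatory caspases and lie in a row on the plus strand of chromosome 9 (GRCm38), within 74525 bases. Casp1 (ENSMUSG00000025888) is at chr9:5298508-5307290, Casp4 (ENSMUSG00000033538) at chr9:5308828-5336783 and Casp12 (ENSMUSG00000025887) at chr9:5345430-5373032. All 3 rose with treatment in both lines, but from different levels and to different levels.

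Casp1, whose product cleaves the precursors of IL-1β and IL-18 as well as gasdermin D, stood at 0.0329, 0.117 and 0.0426 TPM in Q7-C replicates 1 to 3. After treatment of STHdhQ7 cells it was at 6.19, 5.37 and 6.52 TPM. In STHdhQ111 cells it was listed at 0, 0.0902 and 0 TPM without treatment and at 0.452, 0.891 and 0.848 TPM with it. Every treated library was above every nontreated library of its line, and the Q111-T libraries were all under 1 TPM. The increase was 6.75 on the log2 scale (SE 0.92, adjusted p = 0.000731) in STHdhQ7 cells, and 7.41 without Q7-C replicate 2. In STHdhQ111 cells it was 4.68 (SE 0.91, adjusted p = 0.00366), 0.74 on log2(TPM + 1) 4.05 without Q111-C replicate 3 and 9.31 without Q111-C replicate 2, the last a fit against libraries at 0 that gives no bound. Because nontreated cells gave only about 6 read pairs over Q7-C and 3 over Q111-C, these folds are poorly bounded. The ratio of depth-scaled read pairs was 98.3 (95% counting interval 44.9 to 269.0) in STHdhQ7 and 20.5 (6.65 to 102.2) in STHdhQ111 cells, and the intervals overlap. These intervals cover counting error only.

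Casp4 showed the largest response of the caspases relative to its error. Its levels in Q7-C were 0.1, 0.146 and 0.149 TPM, and those in Q7-T were 10.1, 12.9 and 11.2 TPM. In Q111-C it was at 0.383, 0.729 and 0.674 TPM, and in Q111-T at 17.0, 16.4 and 17.7 TPM. The groups did not overlap in either line, and the treated libraries of each line lay close together. It rose 98.4-fold (log2 fold change 6.62, SE 0.37, adjusted p = 5.18e-07) in STHdhQ7 cells and 30.1-fold (4.91, SE 0.33, adjusted p = 1.64e-06) in STHdhQ111 cells.

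Casp12 encodes a caspase long placed at the endoplasmic reticulum, and it held the 2 GAS matches shown above. It was at 1.3, 2.43 and 2.33 TPM in Q7-C and at 34.5, 13.8 and 30.5 TPM in Q7-T. In Q111-C it was at 7.71, 10.6 and 11.03 TPM and in Q111-T at 55.4, 66.9 and 60.9 TPM. Without treatment it was the most abundant of the 3 caspases in every library. The log2 fold change was 3.84 (SE 0.24, adjusted p = 1.03e-06) in STHdhQ7 and 2.76 (SE 0.22, adjusted p = 5.85e-06) in STHdhQ111 cells. Without the Q7-C and Q7-T libraries that stood apart, its log2 fold change in STHdhQ7 cells was 3.85.

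Gsdmd (ENSMUSG00000022575, chr15:75862327-75867408, plus strand), the pore-forming target of caspase-1 and the Casp4 product, was already well expressed. Its levels were 19.5, 18.8 and 20.9 TPM in Q7-C and 66.4, 71.6 and 77.9 TPM in Q7-T. They were 15.9, 20.0 and 17.0 TPM in Q111-C and 55.6, 40.9 and 58.6 TPM in Q111-T. Treated libraries exceeded nontreated ones in both lines. Gsdmd rose 4.25-fold (log2 fold change 2.09, SE 0.22, adjusted p = 0.00011) in STHdhQ7 and 3.12-fold (1.64, SE 0.22, adjusted p = 0.000286) in STHdhQ111 cells.

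Zbp1 (ENSMUSG00000027514, chr2:173206612-173218923, minus strand), the sensor of Z-form nucleic acids that recruits RIPK3, had the largest log2 fold change of the 9 genes in STHdhQ111 cells. It was at 0.185, 1.07 and 0.427 TPM in Q7-C and at 37.6, 35.98 and 46.5 TPM in Q7-T. Levels in Q111-C were 1.87, 1.85 and 3.01 TPM, and in Q111-T they reached 211.5, 175.6 and 213.3 TPM. The log2 fold changes were 6.42 (SE 0.49, adjusted p = 6.16e-06) in STHdhQ7 and 6.57 (SE 0.49, adjusted p = 3.13e-06) in STHdhQ111 cells, and the former was 7.19 without Q7-C replicate 2. The difference of these responses was 0.15 with an SE of 0.57 (adjusted p = 0.926), so the data bound it only loosely.

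Casp8 (ENSMUSG00000026029, chr1:58795374-58847503, plus strand), the caspase that restrains necroptosis, was at 20.7, 32.02 and 30.9 TPM in Q7-C and at 29.9, 13.4 and 31.1 TPM in Q7-T. In Q111-C it was at 48.3, 51.5 and 51.7 TPM and in Q111-T at 49.2, 46.9 and 53.6 TPM. Treated and nontreated libraries overlapped in both lines. Its log2 fold change was -0.03 (SE 0.15, adjusted p = 0.955) in STHdhQ7 and 0.08 (SE 0.15, adjusted p = 0.787) in STHdhQ111 cells. Without the libraries that stood apart, the value in STHdhQ7 cells was 0.04. The gene model Gm37760 lies within Casp8 on the same strand, and its own level was at most 0.14 TPM.

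Ripk1 (ENSMUSG00000021408, chr13:34002363-34033677, plus strand), the kinase and scaffold below the TNF receptor, likewise did not pass in either line. It was at 9.71, 21.5 and 24.5 TPM in Q7-C and at 29.9, 15.1 and 31.0 TPM in Q7-T. In Q111-C it was at 23.4, 23.8 and 24.1 TPM and in Q111-T at 35.4, 22.1 and 35.6 TPM. The lowest value of each STHdhQ7 group came from the library that stood apart. The log2 fold change was 0.64 (SE 0.21, adjusted p = 0.135) in STHdhQ7 and 0.47 (SE 0.21, adjusted p = 0.162) in STHdhQ111 cells, and it was 0.49 in STHdhQ7 cells without those libraries. The GAS and ISRE core matches of its downstream promoter window thus belong to a gene that did not pass the thresholds. Serpinb6a overlaps Ripk1 on the opposite strand at 194.5 to 284.9 TPM. The libraries kept strand, but whether the counting used it is not given in the sources used here.

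Ripk3 (ENSMUSG00000022221, chr14:55784995-55788865, minus strand), the kinase that phosphorylates MLKL, was at 0.878, 0.817 and 0.623 TPM in Q7-C and at 1.76, 1.51 and 0.873 TPM in Q7-T. In STHdhQ111 cells it was at 92.9, 92.1 and 87.7 TPM without and at 105.6, 116.5 and 109.2 TPM with treatment. Groups overlapped in STHdhQ7 but not in STHdhQ111 cells. The log2 fold change was 1.04 (SE 0.34, adjusted p = 0.126) in STHdhQ7 and 0.39 (SE 0.31, adjusted p = 0.465) in STHdhQ111 cells. In STHdhQ7 cells it passed without Q7-T replicate 3 (log2 fold change 1.35, adjusted p = 0.0191) and in DESeq2 (1.05, adjusted p = 0.0336), among 24 alternatives.

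Mlkl (ENSMUSG00000012519, chr8:111311797-111338177, minus strand) encodes the executioner of necroptosis. It was at 0.992, 2.34 and 1.77 TPM in Q7-C and at 19.4, 13.1 and 18.2 TPM in Q7-T. Its levels were 66.8, 63.7 and 76.7 TPM in Q111-C and 313.1, 242.8 and 333.1 TPM in Q111-T. Every treated library exceeded the nontreated ones of its line, and even the nontreated STHdhQ111 libraries exceeded the treated STHdhQ7 ones. It rose 11.5-fold (log2 fold change 3.53, SE 0.20, adjusted p = 5.39e-07) in STHdhQ7 and 4.57-fold (2.19, SE 0.19, adjusted p = 8.35e-06) in STHdhQ111 cells.

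**Figure D2:**
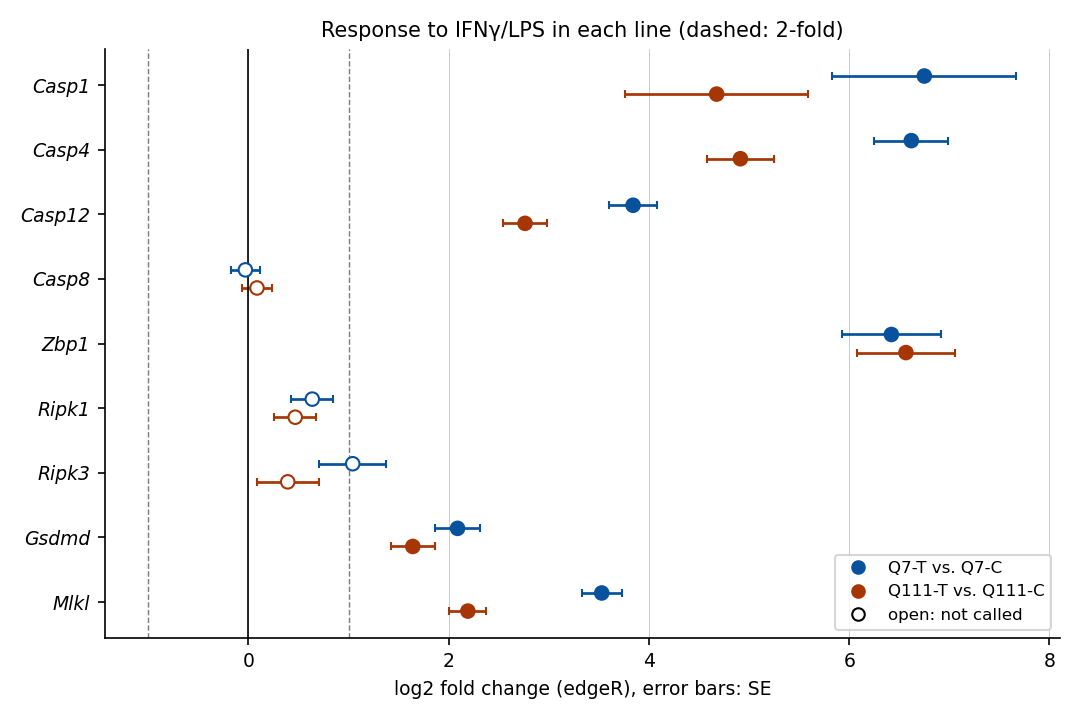
Log2 fold change with SE from edgeR for each gene after IFNγ/LPS, in STHdhQ7 (Q7-T vs. Q7-C) and STHdhQ111 cells (Q111-T vs. Q111-C). Filled points passed an adjusted p of 0.05 and a 2-fold change (dashed lines), and open points did not. The 6 filled genes are the same in both lines, while Casp8, Ripk1 and Ripk3 are open in both.

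Whether the responses themselves differed between the lines was tested by the interaction of line and treatment, which 2 of the 9 genes passed, as did 4.71% of all genes tested. Mlkl rose less in STHdhQ111 than in STHdhQ7 cells, by 1.34 on the log2 scale (-1.34, SE 0.26, adjusted p = 0.011). For Casp4 the difference was -1.71 (SE 0.43, adjusted p = 0.0398). In both, the line with the higher nontreated level had the smaller fold. The Casp4 difference depended on the scale on which its low nontreated values were compared: on log2(TPM + 0.5) it was -0.21, on log2(TPM + 1) it was 0.061, and leaving out any of 8 of the 12 libraries raised its adjusted p to between 0.0642 and 0.104. Those libraries were the 3 of Q7-C, Q111-C replicates 2 and 3, and the 3 of Q111-T, with differences between -1.79 and -1.58. For Mlkl, limma with 0.1, 0.5 or 1 added to TPM gave -1.21, -0.93 and -0.67, with adjusted p between 0.156 and 0.287. Without the 2 libraries that stood apart, the differences were -1.23 for Casp4 (adjusted p = 0.0274) and -1.07 for Mlkl (adjusted p = 0.00542). Casp12 missed the threshold at -1.08 (SE 0.30, adjusted p = 0.0607), but passed without Q7-T replicate 2 (-1.24), without Q111-T replicate 2 (-1.27), without both libraries that stood apart (-1.08, adjusted p = 0.0148) and in DESeq2 (-1.09).

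The next question was how the lines differed. Without treatment, 5 of the 9 genes stood higher in nontreated STHdhQ111 than in nontreated STHdhQ7 cells (Ripk3, Mlkl, Casp12, Casp4 and Zbp1) and none was lower past the thresholds in edgeR, DESeq2 or limma (1, Gsdmd, was lower at an unadjusted p under 0.05 in edgeR), where 15.2% of all genes tested passed in either direction. The groups did not overlap for 6 of the 9 genes, as for 51.4% of all genes. After treatment, 4 genes passed, with Ripk3, Mlkl and Zbp1 higher and Casp1 lower in Q111-T, where 24.5% of all genes passed. The groups did not overlap for 8 of the 9, as for 46.3% of all genes. The median log2 fold change of the 9 genes was 1.74 without and 0.67 with treatment, and that of all genes tested was -0.02 and -0.03. On the log2(TPM + 0.5) scale the medians of all genes were 0.27 and 0.34, so ratios of TPM between the lines are larger than the edgeR values. The Q7-C and Q111-C libraries used here also enter the treatment responses above, so these comparisons are not independent of each other.

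**Figure D3:**
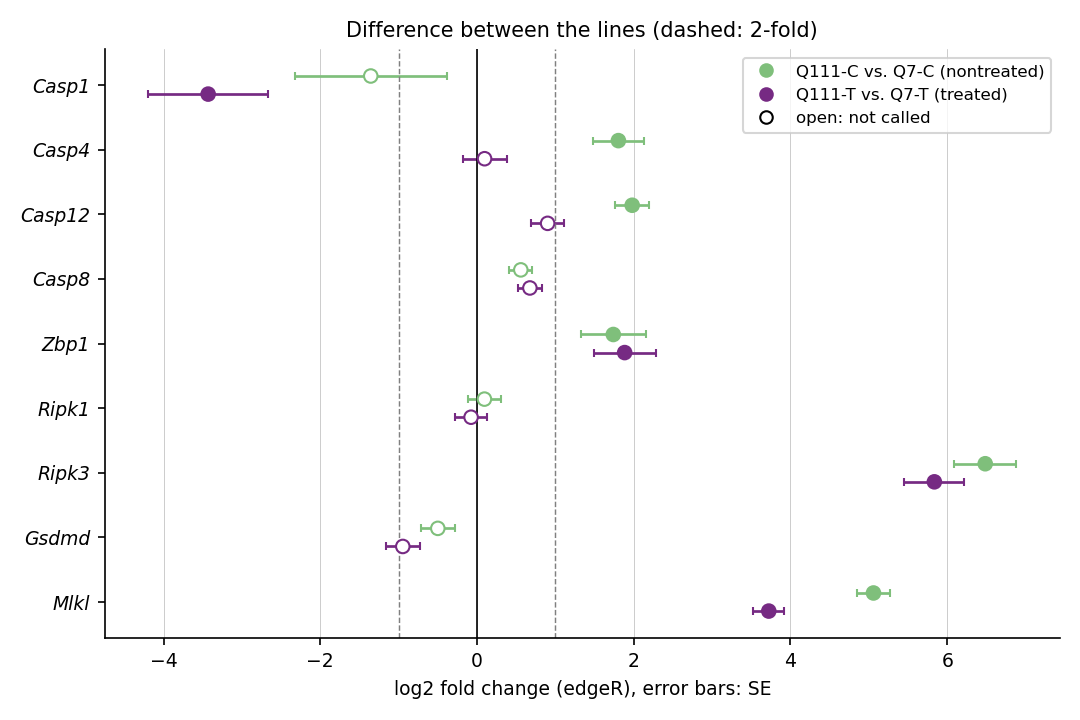
Log2 fold change with SE from edgeR between STHdhQ111 and STHdhQ7 cells, without treatment (Q111-C vs. Q7-C) and with it (Q111-T vs. Q7-T). Filled points passed an adjusted p of 0.05 and a 2-fold change (dashed lines). Ripk3 and Mlkl lie between 3.72 and 6.49, and Casp1 after treatment lies at -3.43.

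The kinase RIPK3 and its target MLKL showed the widest gaps between the lines. Ripk3 averaged 0.773 ± 0.134 TPM (SD, n = 3) in Q7-C, against 90.9 ± 2.84 TPM (SD, n = 3) in Q111-C libraries, a log2 fold change of 6.49 (SE 0.40, adjusted p = 7.11e-07). After treatment it averaged 1.38 ± 0.456 and 110.4 ± 5.56 TPM, a log2 fold change of 5.84 (SE 0.38, adjusted p = 1.02e-06). Mlkl averaged 1.70 ± 0.674 TPM in Q7-C, against 69.1 ± 6.80 TPM in Q111-C (5.06, SE 0.21, adjusted p = 1.01e-07). After treatment it averaged 16.9 ± 3.34 and 296.4 ± 47.4 TPM (3.72, SE 0.20, adjusted p = 3.32e-07). Ripk1, their upstream partner, averaged 18.6 ± 7.83 TPM in Q7-C, against 23.8 ± 0.351 TPM in Q111-C, with a log2 fold change of 0.09 (SE 0.21, adjusted p = 0.804). After treatment its difference was -0.08 (SE 0.21, adjusted p = 0.797). Casp8 was higher in STHdhQ111 cells by 0.56 (SE 0.15, adjusted p = 0.018) without and by 0.67 (SE 0.15, adjusted p = 0.00442) with treatment on the log2 scale, which is less than 2-fold. On log2(TPM + 0.5) the difference with treatment was 1.09 and passed. Its groups did not overlap in TPM in either comparison.

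The sensor Zbp1 averaged 0.562 ± 0.459 TPM in Q7-C, against 2.24 ± 0.665 TPM in Q111-C (log2 fold change 1.74, SE 0.42, adjusted p = 0.00998), and the adjusted p was 0.0525 when only these 2 groups were fitted. The highest Q7-C level was that of replicate 2, without which the log2 fold change was 2.55. In treated cells the averages were 40.01 ± 5.65 and 200.1 ± 21.3 TPM (1.88, SE 0.39, adjusted p = 0.00321).

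Among the inflammatory caspases the lines differed in opposite directions. Casp12 averaged 2.02 ± 0.625 TPM in Q7-C, against 9.76 ± 1.79 TPM in Q111-C (1.98, SE 0.22, adjusted p = 5.38e-05). After treatment the difference was 0.90 (SE 0.21, adjusted p = 0.00608), just under 2-fold, and it passed 2-fold without Q7-T replicate 1 (1.01) or Q111-T replicate 1 (1.02), when scaled by library totals only (1.08) and in the limma fits (1.28 to 1.31). Casp4 averaged 0.132 ± 0.0275 TPM in Q7-C, against 0.595 ± 0.186 TPM in Q111-C (1.80, SE 0.33, adjusted p = 0.00178), which stayed under 2-fold on log2(TPM + 0.5) at 0.78. In treated cells Casp4 averaged 11.4 ± 1.40 and 17.0 ± 0.662 TPM. Those libraries did not overlap in TPM, but the edgeR difference was 0.10 (SE 0.28, adjusted p = 0.807). It was 0.54 (adjusted p = 0.0482) without the 2 libraries that stood apart, of which Q7-T replicate 2 held a TMM-scaled CPM of 42.02 for Casp4, against 19.6 and 22.8 in the other Q7-T libraries. Casp1 went the other way after treatment, at 6.03 ± 0.592 TPM in Q7-T and 0.731 ± 0.242 TPM in Q111-T. It was lower in Q111-T by a log2 fold change of -3.43 (SE 0.76, adjusted p = 0.00459), or 10.8-fold. Without treatment its ratio was 0.513 (95% counting interval 0.083 to 2.40), a difference not detectable at this depth, although the fitted value passed (-5.98) once Q111-C replicate 2 was left out. For the same reason the difference between the lines in its response, -2.08 (SE 1.27, adjusted p = 0.402), turned to 2.57 without Q111-C replicate 2, the only Q111-C library with a Casp1 read. On log2(TPM + 0.1), log2(TPM + 0.5) and log2(TPM + 1) with limma, this difference was -2.56, -2.33 and -1.98. It passed in each limma fit (adjusted p between 0.000162 and 0.0106). However, Casp1 before treatment averaged 0.0641 TPM (STHdhQ7) and 0.0301 TPM (STHdhQ111), less than any of the amounts added. These limma values therefore rest largely on the treated levels and cannot decide whether the fold responses differed.

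Gsdmd, downstream of caspase-1 and the Casp4 product, was close in the lines without treatment (19.7 ± 1.08 and 17.6 ± 2.10 TPM, log2 fold change -0.50, SE 0.22, adjusted p = 0.129). With treatment it averaged 72.0 ± 5.75 TPM in Q7-T and 51.7 ± 9.48 TPM in Q111-T, a difference of -0.95 (SE 0.22, adjusted p = 0.00537) that stayed just under 2-fold. It passed 2-fold without Q7-T replicate 1 (-1.12) or Q7-T replicate 3 (-1.01), and was -0.64 without both libraries that stood apart.

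Ratios of TPM within a library do not depend on the scaling between libraries. The ratio of Ripk3 to Ripk1 was 0.0254 to 0.101 in the 6 STHdhQ7 libraries and 2.98 to 5.27 in the 6 STHdhQ111 libraries, so RIPK3 transcripts were the rarer of the pair in STHdhQ7 and the more abundant in STHdhQ111 cells. The highest STHdhQ7 values, 0.0904 and 0.101, came from Q7-C replicate 1 and Q7-T replicate 2, the libraries that stood apart. Mlkl exceeded Ripk3 by 1.13 to 2.86 times in Q7-C and by 8.65 to 20.9 times in Q7-T. The lowest value of each group again came from the library that stood apart. In Q7-C replicates 2 and 3 the ratio was 2.86 and 2.84, and in Q7-T replicates 1 and 3 it was 11.05 and 20.9. In Q111-C the ratio was 0.691 to 0.875, and in Q111-T it was 2.08 to 3.05. The order of this pair therefore turned with treatment in STHdhQ111 cells. Zbp1 was at 0.0201 to 0.0344 times the Ripk3 level in Q111-C and at 1.51 to 2.00 times in Q111-T, while in Q7-T it was at 21.4 to 53.2 times. Casp12 was at 13.0 to 20.1 times the Casp4 level in nontreated and at 1.07 to 4.08 times in treated libraries. The 1.07 was that of Q7-T replicate 2, against 3.41 and 2.74 in Q7-T replicates 1 and 3. Casp1 was at 0.417 to 0.613 times the Casp4 level in Q7-T and at 0.0266 to 0.0544 times in Q111-T.

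**Figure D4:**
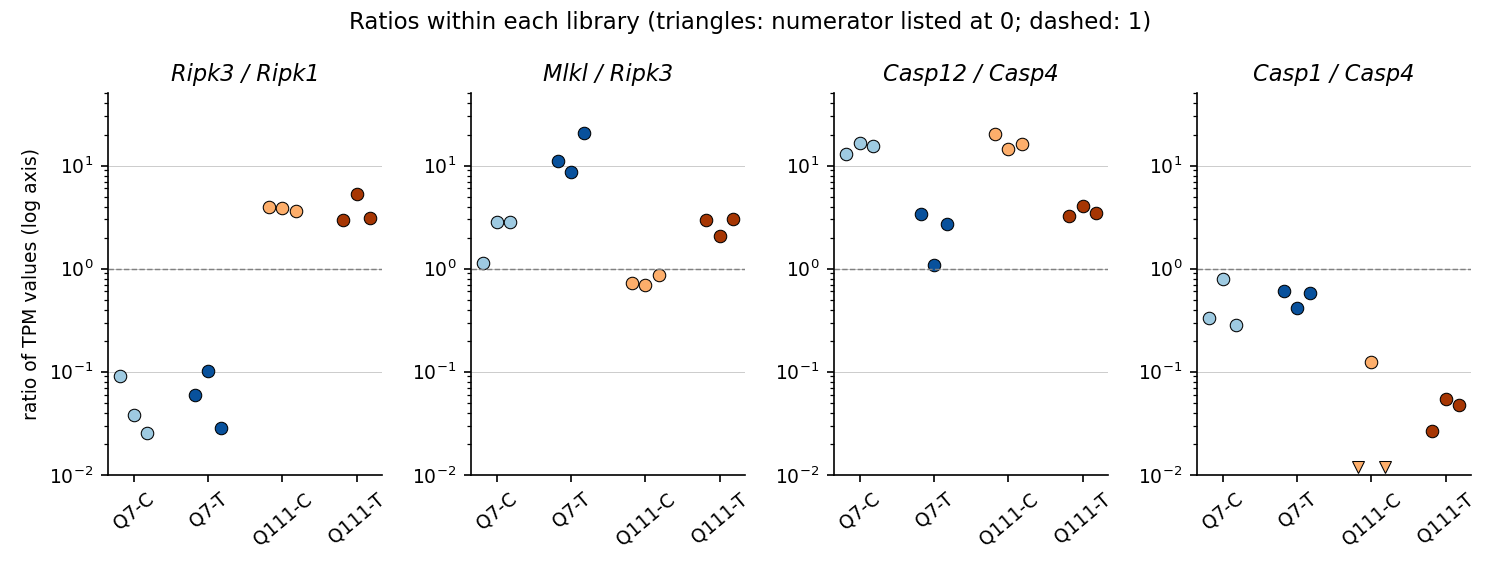
Ratios of TPM within each library on a log axis for 4 gene pairs, grouped as Q7-C, Q7-T, Q111-C and Q111-T. Triangles mark libraries with Casp1 listed at 0, and the dashed line is a ratio of 1. The Ripk3 to Ripk1 ratio lies below 1 in every STHdhQ7 and above 1 in every STHdhQ111 library.

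By mean TPM, the order of the 9 genes changed from group to group. In Q7-C, Casp8 led with Gsdmd and Ripk1, whose libraries overlapped, and Casp1 came last below Casp4, with which it overlapped. In Q7-T the order was Gsdmd, Zbp1, Casp12, Ripk1, Casp8, Mlkl, Casp4, Casp1 and Ripk3, in which each of Casp12, Ripk1, Casp8 and Mlkl overlapped its neighbour. In Q111-C it was Ripk3, Mlkl, Casp8, Ripk1, Gsdmd, Casp12, Zbp1, Casp4 and Casp1, with no overlap between neighbours. In Q111-T it was Mlkl, Zbp1, Ripk3, Casp12, Gsdmd, Casp8, Ripk1, Casp4 and Casp1, in which Gsdmd overlapped Casp12 and Casp8 overlapped Gsdmd. Ripk3 was thus the least abundant of the 9 in Q7-T and the most abundant in Q111-C.

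The genes with the most similar pattern of log2(TPM + 0.5) over the 12 libraries were found for each gene by Pearson correlation over all genes tested, as a description only, since the libraries fall into 4 groups. For Zbp1 they were Ifi202b (r = 0.993), an interferon-inducible gene, and Chil1 (0.992). For Casp4 they were Serpina3g (0.995) and the MHC class II gene H2-Eb1 (0.994), and for Casp12 Parp9 (0.994) and Trim21 (0.992), both interferon-inducible. Gsdmd was nearest to the MHC class I gene H2-T23 (0.99) and the guanylate-binding protein gene Gbp8 (0.985), and Casp1 to Serpina3h (0.982) and Tmem176b (0.98). Ripk3, with its step between the lines, was nearest to Bhlhb9 (0.997) and the extracellular matrix gene Fbln1 (0.997). Mlkl was nearest to Prl2c2 (0.996) and Ampd3 (0.995), Casp8 to Capza1 (0.994) and Zfp983 (0.993), and Ripk1 to Sdad1 (0.975) and Zfp202 (0.965). Between members, the highest value was that of Casp4 with Zbp1 (0.979).

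The other genes of the pathways were counted from lists by role. Of 13 inflammasome sensors and adaptors, 11 were in the table and 3 passed the filter. Pycard, which encodes the adaptor ASC between sensors and caspase-1, was at 0 in every treated library and at no more than 16 estimated counts in any other. Nlrp3 was at 0 in every nontreated library, at 0.0144 ± 0.025 TPM in Q7-T and at 0.318 ± 0.051 TPM in Q111-T. Naip2, a sensor of bacterial proteins, rose in Q111-T (log2 fold change 3.50, SE 0.87, adjusted p = 0.0147) from 0.0651 to 0.700 TPM, and no gene of the list passed in Q7-T vs. Q7-C, by edgeR (also not at an unadjusted p under 0.05), DESeq2 or limma. Over all genes 8.28% rose in STHdhQ111 and 2.93% in STHdhQ7 cells.

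Of the other gasdermins, the membrane rupture gene Ninj1 and the released cytokines (15 genes, 9 in the table, 5 tested), 4 rose in STHdhQ111 cells and none passed in STHdhQ7 cells in edgeR, where 8.28% and 2.93% of all genes rose. In STHdhQ7 cells 3 were higher at an unadjusted p under 0.05 and 1 passed in DESeq2. Il1a, the alarmin interleukin, was at 0 in every Q111-C library and at 491, 468 and 351 estimated counts in Q111-T, at least 36.9-fold higher against a floor of 12 counts per library. Ninj1 (1.22, SE 0.35, adjusted p = 0.0329), Il33 (1.19, SE 0.30, adjusted p = 0.0164) and Il18 (1.08, SE 0.26, adjusted p = 0.0137) rose by about 2-fold there. Gsdme, another gasdermin, was at 1.97 to 2.77 TPM in the group means and passed in no comparison. Whether these responses differed between the lines was tested for each gene, and none passed in edgeR (Il1a adjusted p = 0.062), where 2 had an unadjusted p under 0.05, while 2 passed in DESeq2 and 2 in limma.

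Among 15 receptors, adaptors and sensors upstream of RIPK1 and RIPK3 (13 tested), 2 rose in STHdhQ7 and 4 in STHdhQ111 cells, where 2.93% and 8.28% of all genes rose. The death receptor gene Fas rose in both, from 7.85 ± 1.94 to 73.8 ± 17.7 TPM in STHdhQ7 (log2 fold change 3.42, SE 0.16, adjusted p = 2.07e-07) and from 9.89 ± 1.28 to 172.8 ± 0.835 TPM in STHdhQ111 cells (4.23, SE 0.17, adjusted p = 7.97e-08). Tlr3, a sensor of double-stranded RNA that can engage RIPK3, rose 2.67-fold and 12.1-fold, and its responses differed between the lines (2.18, SE 0.45, adjusted p = 0.0149), as did those of Tnfrsf10b (1.36, SE 0.29, adjusted p = 0.0186). Tnfsf10, which encodes the ligand TRAIL, and the TRAIL receptor gene Tnfrsf10b rose in STHdhQ111 cells (6.21, SE 1.00, adjusted p = 0.00107, and 1.12, SE 0.21, adjusted p = 0.00257). Adaptor genes Tradd, Fadd, Ticam1 and Traf2 passed in neither line.

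A list of 18 genes was drawn up as brakes on RIPK1, RIPK3 and ZBP1, although Cyld in it is not a plain brake. Of these 18, 3 rose in STHdhQ7 and 4 in STHdhQ111 cells, against the same shares of all genes. In limma on log2(TPM + 0.5) none of the 18 passed in STHdhQ7 cells and 4 rose in STHdhQ111 cells, and of the 13 upstream genes 1 and 3 rose. Tnfaip3, which encodes the ubiquitin-editing enzyme A20, rose 2.63-fold and 7.001-fold, and the kinase gene Ikbke rose 2.42-fold and 4.94-fold, with responses that differed between the lines (1.03, SE 0.24, adjusted p = 0.0314). In STHdhQ111 cells the ubiquitin ligase gene Birc3 (1.77, SE 0.45, adjusted p = 0.0174) and Adar (1.68, SE 0.20, adjusted p = 0.00012), whose product edits double-stranded RNA and limits ZBP1, also rose. Cflar, the caspase-8 regulator cFLIP, reached 0.72 (adjusted p = 0.0111) in STHdhQ111 cells, under 2-fold. Of 7 genes for apoptotic caspases and their adaptor Apaf1 (6 tested), Apaf1 rose 3.96-fold in STHdhQ111 cells, with responses that differed between the lines (2.02, SE 0.52, adjusted p = 0.0434). In limma on log2(TPM + 0.5) no gene of this list passed for that difference. None of 7 genes of the ESCRT-III membrane repair machinery passed in either line in edgeR, DESeq2 or limma. In STHdhQ111 cells 1 was higher and 2 were lower at an unadjusted p under 0.05 in edgeR.

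The median log2 fold changes of these lists in STHdhQ111 cells were 0.48 for the inflammasome list, 1.19 for the gasdermin and cytokine list, 0.26 for the apoptotic caspases, 0.25 for the upstream list, 0.57 for the brakes and -0.10 for ESCRT-III, each below the 2.19 of the 9 genes above. In STHdhQ7 cells they were -0.25, 0.70, -0.01, 0.27, 0.14 and 0.07, against 3.53. Naip2, Il1a and Tnfsf10 would not have reached the filter without Q111-T, the group where they were highest. Their rise in STHdhQ111 cells was thus favoured by how they entered the test. The inflammasome medians rest on only 3 tested genes.

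**Figure D5:**
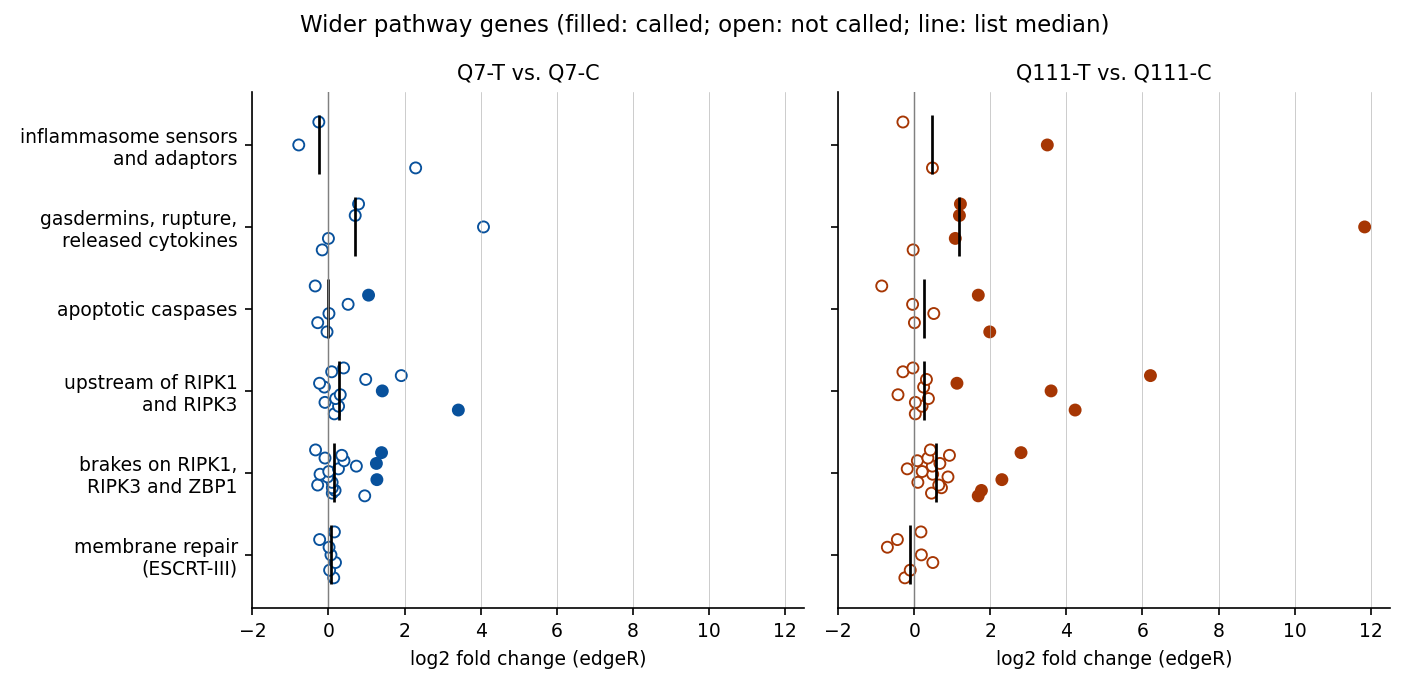
Log2 fold change from edgeR of every tested gene of the 6 wider lists after IFNγ/LPS, in STHdhQ7 (left) and STHdhQ111 cells (right). Filled points passed an adjusted p of 0.05 and a 2-fold change, and lines are list medians. The farthest point is the fitted value of Il1a in STHdhQ111 cells, whose nontreated libraries were all at 0.

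Markers of another cell type moved with part of these changes. The 7 macrophage and microglia markers in the table summed to 6.12 to 8.64 TPM in Q7-C, 8.96 to 15.5 TPM in Q7-T, 14.7 to 16.8 TPM in Q111-C and 40.9 to 58.1 TPM in Q111-T. Nearly all of this was Cd68, a lysosomal gene that other cells also express, at 48.8 ± 8.58 TPM in Q111-T, while Ptprc was at 0 there and Itgam and Spi1 were at no more than 6 counts in any Q111-T library. Csf1r averaged 0.209 ± 0.0753 TPM in Q111-C and 0.361 ± 0.156 TPM in Q111-T, with up to 92 counts in a library, too low to be tested. The 6 astrocyte markers summed to 1.05 to 1.98, 1.33 to 1.86, 9.01 to 11.1 and 4.16 to 5.24 TPM in the 4 groups in the same order, mostly from the transporter gene Slc1a3, at 0.902 ± 0.447 TPM in Q7-C libraries and 9.86 ± 1.09 TPM in those of Q111-C. Of the other astrocyte markers, Aldh1l1 was lower in Q111-C (-3.56, SE 1.16, adjusted p = 0.0459), and Gfap averaged 0.0995 TPM in Q7-C against 0.059 TPM there. With treatment in STHdhQ111 cells Slc1a3 fell (-1.75, SE 0.27, adjusted p = 0.000767) and Aldh1l1 rose from 0.0384 ± 0.0665 to 1.32 ± 0.28 TPM (5.13, SE 1.21, adjusted p = 0.0116), while Gfap went from 0.059 to 0.246 TPM and Slc1a2 from 0.0634 to 0.287 TPM, both too low to be tested. Among the striatal neuron markers, whose sums are given above, Penk, the proenkephalin gene, was at 4.93 ± 0.793 TPM in Q111-C, against 0.143 ± 0.248 TPM in Q7-C (4.88, SE 1.43, adjusted p = 0.0294). The 6 mesenchymal markers summed to 4243 to 4838 TPM in Q7-C, 3285 to 3713 TPM in Q7-T, 3671 to 3829 TPM in Q111-C and 1502 to 1622 TPM in Q111-T. With treatment 3 of the 6 fell in STHdhQ7 and 4 in STHdhQ111 cells, among them the collagen genes Col1a1, Col1a2 and Col3a1 in both, where 1.11% and 2.96% of all genes fell. Without treatment 3 were higher and 1 was lower in Q111-C, where 15.2% of all genes passed in either direction, the latter being Acta2 (-5.59, SE 0.35, adjusted p = 7.97e-07). The part of such markers in the results was not tested.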

How the data were processed

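Stranded poly(A) libraries of 12 samples were sequenced as read pairs. Per the study's methods and the labels, the authors trimmed reads with Cutadapt, mapped them with HISAT2 to GRCm38 and estimated expression with StringTie. The authors deposited TPM values, which are scaled for transcript length and library total, and unnormalized estimated counts for 29428 genes. No column was left without a sample.

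Counts were rounded, scaled by TMM and fitted in edgeR 4.0.16 (quasi-likelihood test, R 4.3.3) with 1 mean for each of the 4 groups. A gene was tested where 3 or more libraries reached 0.5 TPM (16127 genes). A gene passed at a Benjamini-Hochberg adjusted p under 0.05 over all of them and a 2-fold change. The SE was derived from the F statistic. Exact permutation tests of 3 libraries against 3 cannot go below 0.1 and were not used for calls. The libraries held 57505990 to 96417834 counts, and the estimated counts overstate depth if 1 read pair stands for 4 of them. A floor of 3 read pairs (12 counts) was used for folds against a group at or under it in every library. The procedure was checked on simulated counts. The study describes the replicates as biological, and none of the 12 pairs of libraries within a group matched within sampling noise (smallest chi-square per degree of freedom 4.88).

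The 9 genes were taken by name, and they, the lists, the tests and most alternatives were chosen with earlier results of these data known. Beside the 9 genes, the text names up to 4 genes per list with the largest change among those that passed with treatment, genes of a list on which a result turns, and the 2 genes most correlated with each member. Genes named outside this rule (Aim2, Pycard, Nlrp3, Gsdme, Cflar, the adaptor genes, and genes of the lists that differed between the lines) were chosen after their values were seen. Some values of the lists are not reported here. The alternatives were no filter or a minimum of 1 TPM, other scalings, DESeq2 1.42.0, limma 3.58.1 on log2(TPM + 0.5), log2(TPM + 0.1) or log2(TPM + 1), counts divided by 4, only the groups compared, a replicate block, and leaving out each library. Leaving out Q7-C replicate 1 with Q7-T replicate 2 was added after seeing the data. Promoter sequences are from RefSeq.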

Additional observations from a re-analysis of the deposited data

Results flagged for a closer look

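Of the 9 genes, 2 responded to IFNγ/LPS differently in STHdhQ111 and STHdhQ7 cells by the test of the difference itself. The difference in log2 fold change was -1.71 for Casp4 (SE 0.43, adjusted p = 0.0398 in edgeR) and -1.34 for Mlkl (SE 0.26, adjusted p = 0.011). Casp4 passed in 10 of 23 alternatives and was 0.061 with limma on log2(TPM + 1), and Mlkl passed in 20 of 23 but in none of the 3 limma fits (-1.21 to -0.67). Both genes rose in all 3 treated libraries of each line above all 3 nontreated ones. In TPM, Casp4 went from 0.132 ± 0.0275 to 11.4 ± 1.40 (SD, n = 3) in STHdhQ7 and from 0.595 ± 0.186 to 17.0 ± 0.662 in STHdhQ111 cells. Mlkl went from 1.70 ± 0.674 to 16.9 ± 3.34 in STHdhQ7 and from 69.1 ± 6.80 to 296.4 ± 47.4 in STHdhQ111 cells.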

How the results depend on the processing

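Of 23 values that passed the thresholds, 18 passed under every alternative. Over 45 values and 1071 alternative fits, 1007 kept their direction and their side of the thresholds, 19 no longer passed, 22 newly passed and 23 changed sign. The counts of genes that passed stayed within 1.5 times for the 4 pairwise comparisons. For the interaction, the count of 2 fell to 1 without a filter, with limma on log2(TPM + 0.5), with limma on log2(TPM + 0.1) and with counts divided by 4, and was between 1 and 3 when a library was left out. The genes changed too: Mlkl was the one that passed without a filter and with counts divided by 4, while Casp1 passed with limma on log2(TPM + 0.5) and log2(TPM + 0.1), and Casp1 with Zbp1 on log2(TPM + 1). Replicate numbers did not pair the samples (6 of 18 same-number pairs had a correlation of deviations over 0.1, between -0.416 and 0.303), and with the replicate block the counts were 6, 6, 5, 4 and 2, as without it.

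Sign changes arose in values near 0 or with few reads, apart from Casp4 in the interaction, which was 0.061 with limma on log2(TPM + 1). Leaving out a library (or the 2 that stood apart) gave Casp8 -0.15 to 0.12 in Q7-T vs. Q7-C, Ripk1 -0.12 to 0.29 in Q111-C vs. Q7-C, and in Q111-T vs. Q7-T Casp4 -0.11 to 0.54 and Ripk1 -0.17 to 0.068. In the interaction it gave Casp1 -2.75 to 2.57, Casp8 -0.034 to 0.23, Zbp1 -0.65 to 0.68 and Ripk1 -0.35 to 0.045. Without Q7-C replicate 1 and Q7-T replicate 2, Casp8 was 0.04 in Q7-T vs. Q7-C and Ripk1 was -0.12 in Q111-C vs. Q7-C. On limma with 0.5, 0.1 and 1 added to TPM, Casp8 in Q111-T vs. Q111-C was -0.0183, -0.0185 and -0.0181, and Ripk1 in Q111-T vs. Q7-T was 0.33, 0.33 and 0.32. Ripk1 was 0.12 there when scaled by library totals only. The cause was not tested. Depth limits the nontreated levels of Casp1, Casp4 and Zbp1, and Casp1 in STHdhQ111 cells had a fitted value of 9.31 without Q111-C replicate 2.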

Other observations

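Some genes of the wider lists differed between the lines without treatment. Aim2, an inflammasome sensor of cytosolic DNA, was at 3.72 ± 0.16 TPM (SD, n = 3) in Q111-C and at no more than 4 estimated counts in any Q7-C library, at least 27.1-fold higher in Q111-C against a floor of 12 counts per library. Birc3, which encodes a ubiquitin ligase acting on RIPK1, was 19.1-fold higher in Q111-C (log2 fold change 4.25, SE 0.51, adjusted p = 0.000105 in edgeR), and Ikbke was 6.44-fold higher (2.69, SE 0.18, adjusted p = 1.46e-06). The LPS receptor gene Tlr4 (1.49, SE 0.31, adjusted p = 0.00454) and the IFNγ receptor gene Ifngr2 (1.01, SE 0.14, adjusted p = 0.000227) were higher in Q111-C as well, as were Casp6 (1.05, SE 0.17, adjusted p = 0.000926) and Casp9 (1.26, SE 0.25, adjusted p = 0.00361). These 7 were the genes that passed in Q111-C vs. Q7-C among 52 tested in the 6 lists, a share of 13.5%, near the 15.2% of all genes that passed there, and no gene of the lists was lower there past the thresholds in edgeR or limma, while 1 was in DESeq2.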
